A study of Mus musculus with 18 samples.

Results

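CTCF regions found in wild-type (WT) thymocytes and in neither Satb1 knockout (KO) peak list were taken from CUT&RUN peak lists of sorted double-positive (DP) thymocytes. The regions were chosen by the CTCF lists themselves: peaks of the 2 KO lists and the 1 WT list on chromosomes 1 to 19 were merged where they shared at least 1 bp. A merged region was kept if it held a WT peak and no KO peak. The rule kept 6780 regions, out of 62309 merged regions in all and out of 35499 with a WT peak, so 19.1% of WT regions were absent from both KO lists. Their CTCF values are therefore given as a description, with no test.

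The KO mice carried an induced knockout of Satb1 and the WT mice did not, and both genotypes had received tamoxifen. Thymus cells were sorted as DP and labelled primary, and the sources used here do not give the driver of the recombination, the age of the mice or the sort markers. CTCF lists were 2 for KO (replicates 1 and 2) and 1 for WT (replicate 1), and lists for SMC1A were 2 for KO and 2 for WT. Replicate numbers match the batch named in the labels, and nothing says that replicates were separate animals, so their spread may be technical. A second WT CTCF sample and the IgG, H3K27ac and input samples were not analysed here, so no WT replicate checks any CTCF region. Peak lists hold no expression values, and DP identity was not checked against marker genes.

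CTCF is a zinc finger protein that binds a long DNA motif and can halt cohesin, a ring-shaped complex that forms loops along chromosomes. SMC1A is a core part of that ring. SATB1 is a nuclear protein that organises chromatin and is plentiful in thymocytes, where it takes part in the control of T lineage genes. CUT&RUN tethers a nuclease to the antibody-bound protein in nuclei and sequences the DNA fragments it cuts free. DP thymocytes carry both coreceptors, CD4 and CD8, and are the stage at which T cells are selected.

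The CTCF lists held 54222 and 22351 peaks in KO replicates 1 and 2 and 38222 peaks in WT. Read depth is unknown, but the peak caller's own statistics give the reads piled up at a summit and the local background they were set against. The lowest 1% of backgrounds, a proxy of depth, was 1.82 and 3.28 reads in KO replicates 1 and 2 and 1.02 reads in WT. The fewest reads at any called summit were 7 and 11 in the KO lists and 6 in WT. List length and background thus differed between the 3 CTCF libraries along with genotype, and their part in the absence of these regions was not tested. With KO replicate 1 left out, 20461 WT regions (53.9%) were absent from the remaining KO list. With KO replicate 2 left out, 7043 (19.8%) were absent from KO replicate 1, the longer list.

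Few of these regions lay at promoters, and those that did are shown first, because a promoter is the only place where the DNA under a summit could be read. The 3 protein-coding genes with the strongest WT summit inside the 250 bases upstream of an annotated start were Jup, Runx3 and Tspan33. Jup encodes junction plakoglobin, a relative of beta-catenin at cell junctions. Runx3 encodes a transcription factor of CD8 lineage T cells, and Tspan33 encodes a tetraspanin membrane protein. Sequences are from RefSeq on GRCm38.p6, the assembly behind mm10, written 5′ to 3′ on the gene's strand and ending at the base before the start. Capitals mark the closest match on either strand to the 12-base CTCF core consensus, which had 2 mismatches in Jup, 2 in Runx3 and 3 in Tspan33.
Jup, chr11:100397791-100398040, minus strand: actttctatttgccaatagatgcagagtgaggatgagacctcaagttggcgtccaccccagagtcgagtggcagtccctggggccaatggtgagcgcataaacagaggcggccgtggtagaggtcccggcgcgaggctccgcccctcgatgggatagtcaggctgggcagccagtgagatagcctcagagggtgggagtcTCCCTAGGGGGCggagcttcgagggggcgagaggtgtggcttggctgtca
Runx3, chr4:135152295-135152544, plus strand: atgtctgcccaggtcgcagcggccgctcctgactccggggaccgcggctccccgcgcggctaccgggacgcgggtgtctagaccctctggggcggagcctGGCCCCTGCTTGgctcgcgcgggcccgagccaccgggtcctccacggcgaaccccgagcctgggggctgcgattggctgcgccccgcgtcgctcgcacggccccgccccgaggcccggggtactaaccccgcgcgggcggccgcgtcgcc
Tspan33, chr6:29693964-29694213, plus strand: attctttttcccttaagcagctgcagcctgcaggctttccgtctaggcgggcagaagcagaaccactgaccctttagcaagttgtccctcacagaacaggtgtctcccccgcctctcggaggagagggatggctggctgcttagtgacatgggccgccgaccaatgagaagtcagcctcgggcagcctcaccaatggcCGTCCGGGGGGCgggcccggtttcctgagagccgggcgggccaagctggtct

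The Jup summit lay 119 bp upstream of the start, in a WT region of 872 bp with a fold enrichment of 10.3 and a −log10 q of 17.8. Those are the authors' own values for the peak, as are all fold and −log10 q values here. The Runx3 summit lay 151 bp upstream, in a 310 bp region with a fold of 8.87 and a −log10 q of 14.5. In Tspan33 the summit lay 99 bp upstream, with a fold of 8.18 and a −log10 q of 12.5. Of the 3, Jup alone carried an SMC1A peak in WT.

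In all, 108 upstream windows of 103 genes held a summit of a region absent from both KO lists, against 5162 windows of 4835 genes for the other WT CTCF regions. Chromosome 18 has no windows in the table. An exact match to the CTCF core consensus on either strand was found in 0 of the 108 windows (95% Wilson interval 0 to 3.43). It was found in 99 of the 5162 windows of the other WT regions (1.92%; 95% Wilson interval 1.58 to 2.33) and in 0.522% of all 31396 autosomal windows. With at most 1 mismatch the shares were 5.56% (2.57 to 11.6), 7.92% (7.22 to 8.69) and 3.87%, in the same order. Median GC content was 61.6% and 62.0% in the first 2 sets and 52.4% over all windows. A match is a description of letters, and these shares were not tested. The number of windows was too small to separate the first 2 sets, at an exact match or at 1 mismatch.

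By the CTCF values that chose them, the regions were narrow and weak. The WT peak had a median width of 234 bp (5th to 95th percentile 200 to 481), against 501 bp (204 to 1374) at the other WT regions. Peaks of 200 bp, the shortest listed, made up 36.7% of them and 4.50% of the other WT regions. The summit held a median of 9 reads (7 to 14), against 19 (9 to 57), over a local background of 1.28 and 1.55 reads. Median fold enrichment was 4.21, against 7.01, and median −log10 q was 3.44, against 11.1. WT regions that KO replicate 1 alone also held, 11611 in number, lay in between, with a median width of 372 bp and 13 reads at the summit. The 16902 regions in all 3 lists had 642 bp and 25 reads.

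**Figure D1:**
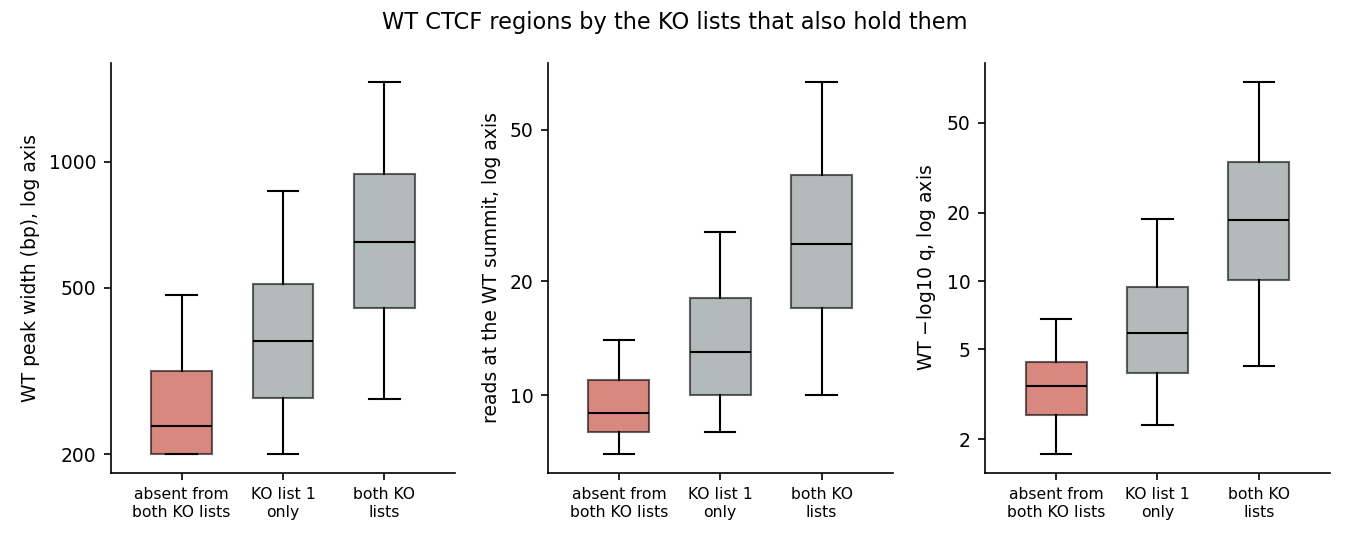
Width of the WT peak in bp, reads at its summit and its −log10 q, on log axes, for WT CTCF regions absent from both KO lists, held by KO list 1 only and held by both KO lists. Boxes span the quartiles with the median as a line, and whiskers the 5th to 95th percentile; the absent regions are lowest on all 3 measures.

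Absence from both KO lists went with WT strength. WT regions were ranked by −log10 q and divided into 10 bins of equal size. In the weakest bin 59.3% were absent from both KO lists, and in the following bins 50.1%, 39.2%, 26.3% and 11.5% were. From the sixth bin on the share was 3.27% or lower, and the strongest bin had 3 of 3549 regions (0.0845%). The 4 weakest bins held 91.6% of the absent regions, 6211 in number. Only 71 of the 6780 reached a −log10 q of 10, against 15447 of the other 28719 WT regions.

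**Figure D2:**
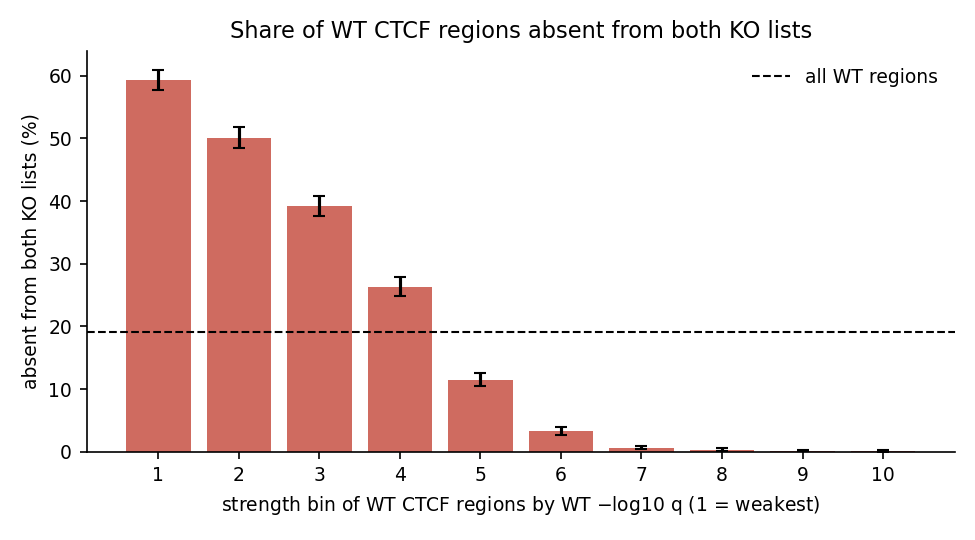
Percent of WT CTCF regions absent from both KO lists in each of 10 strength bins by WT −log10 q, weakest bin left, with 95% Wilson intervals as bars for counting error only. The dashed line is the 19.1% over all WT regions, and the bars run down to the right, with 59.3% in the weakest bin and 0.0845% in the strongest.

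Regions seen in 1 list alone were weak in the KO libraries too. KO replicate 1 alone held 23482 regions, 43.9% of that list's regions, with a median width of 323 bp. KO replicate 2 alone held 1836, or 8.98%, with a median width of 232 bp. Within its own list, the median −log10 q stood at the 17.9th percentile for regions of WT alone, the 26.8th for KO replicate 1 alone and the 21.3rd for KO replicate 2 alone.

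Regions on both sides of the 1 bp rule had similar medians of strength. A KO peak lay within 50 bp of 248 absent regions, down to abutting peaks with a gap of 0 bp, and their median −log10 q was 3.40. Among the other WT regions, 209 had a WT peak that shared 50 bp or less with any KO peak, down to 2 bp, and their median −log10 q was 3.38. Within 1 kb a KO peak was found for 3196 of the absent regions (47.1%).

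Fewer of the absent than of the other WT regions sat on an annotated start. The distance bins differ in width, so shares are compared between the sets and not between bins. Of the 6599 absent regions off chromosome 18, 168 (2.55%; 2.19 to 2.95) had their summit within 250 bp of a start, against 22.0% (21.5 to 22.5) of the other WT regions. Beyond 250 bp the order turned. From there to 1 kb lay 9.08% of the absent regions (8.41 to 9.79), against 7.22% (6.92 to 7.53) of the other WT regions. At 1 to 2 kb and at 2 to 5 kb lay 12.0% and 18.2% of the absent regions, against 5.21% and 9.43%. At 5 to 20 kb it was 28.6%, against 25.4%. Within 5 kb of a start the shares were 41.8% and 43.9%. In a protein-coding gene body lay 61.3% of the absent regions (60.1 to 62.5), against 53.5% (53.0 to 54.1). Part of these gaps went with WT strength. Weighted to the strength bins of the absent regions, 58.7% of the other WT regions lay in a gene body, and 18.4% lay within 1 kb of a start, where 11.6% of the absent ones did and 29.2% of the others unweighted.

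**Figure D3:**
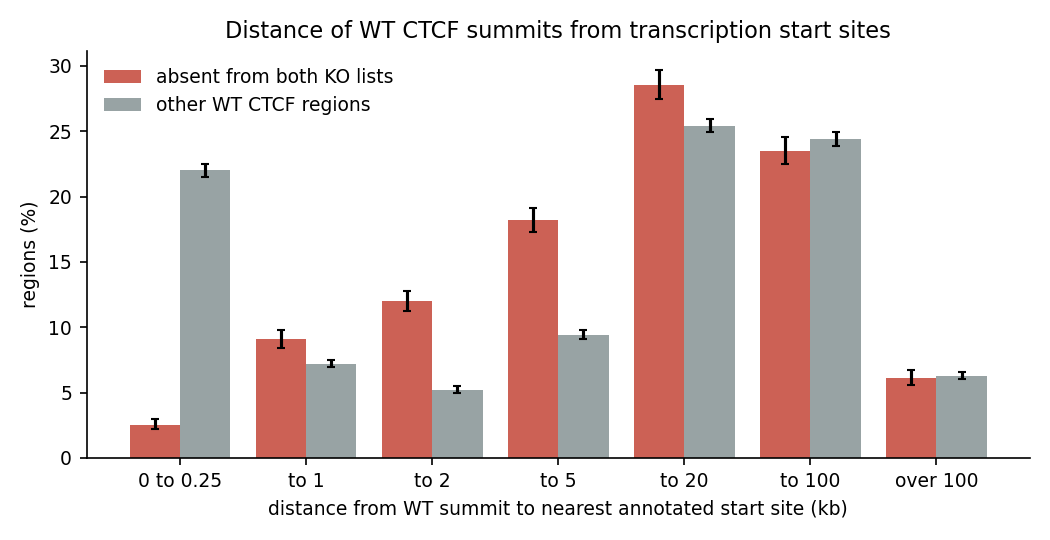
Percent of WT CTCF regions by distance in kb from the WT summit to the nearest annotated start, for regions absent from both KO lists and for the other WT regions, with 95% Wilson intervals. The first bin holds 2.55% of absent regions and 22.0% of the others, and in each bin from there to 20 kb the absent regions are the larger share.

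WT regions that a KO list did hold lay close by. The median distance from an absent region's summit to the nearest of them was 2480 bp, and 42.9% had one within 2 kb. Among those other WT regions themselves, 20.1% had one of their own kind within 2 kb, at a median of 7965 bp. By chromosome, the share of WT regions absent from both KO lists ran from 15.8% on chromosome 14 to 21.8% on chromosome 4. Of the regions, 4696 stood alone between other WT regions and the rest came in runs of 2 or more. No count for a random order was set beside these, so the runs are not read as clustering.

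SMC1A was measured in libraries that the rule did not use. SMC1A peaks overlapped 2.96% and 1.15% of the absent regions in KO replicates 1 and 2, and 2.86% and 2.57% in WT replicates 1 and 2. At the other WT CTCF regions the shares were 68.5% and 54.9% in KO and 55.5% and 55.8% in WT. The absent regions were thus lower in 4 of 4 SMC1A lists, with a mean difference of −56.3 ± 6.16 percentage points (SD, n = 4 lists; exact paired permutation test, two-sided, p = 0.125, the smallest that 4 lists allow). The gap was as large at a fixed width: with an SMC1A peak within 200 bp of the WT summit counted instead, the shares were 3.42% and 1.30% in KO and 3.10% and 2.80% in WT. The other WT regions then had 67.3% and 53.7% in KO and 54.3% and 54.6% in WT. Part of the gap went with WT CTCF strength. By overlap, and weighted to the strength bins of the absent regions, the other WT regions had lower SMC1A shares. These were 38.3% and 23.4% in KO replicates 1 and 2 and 22.5% and 21.7% in WT replicates 1 and 2. Regions of 1 KO CTCF list alone had low SMC1A shares too. For KO CTCF replicate 2 alone they were 4.52% and 3.38% in the KO SMC1A lists and 4.47% and 4.36% in the WT ones. For KO CTCF replicate 1 alone they were 15.4% and 7.07% in KO and 4.37% and 4.69% in WT. The remaining regions of those 2 CTCF lists ran from 53.6% to 80.3% over the 4 SMC1A lists.

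Within each of the 6 weakest bins of WT CTCF strength the absent regions were also the lower ones in all 4 lists. In the weakest bin SMC1A peaks overlapped 2.33% and 0.902% of them in KO replicates 1 and 2 and 1.76% and 1.33% in WT replicates 1 and 2. The other WT regions of that bin had 31.0% and 18.6% in KO and 16.8% and 16.8% in WT. Few absent regions lay in the stronger bins. In bin 7 SMC1A was at 2 and 0 of 24 in KO and at 4 and 6 in WT. In bin 8 it was at 0 and 0 of 12 in KO and at 3 and 5 in WT. For bin 9 the counts were 0 and 0 of 5 in KO and 3 and 3 in WT, and for bin 10 0 and 0 of 3 in KO and 1 and 0 in WT. These counts were not tested. Within 1 kb of a start the absent regions had 6.26% and 1.69% in KO and 4.69% and 3.78% in WT, against 83.0% and 71.2% in KO and 75.4% and 74.2% in WT at the other WT regions there.

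**Figure D4:**
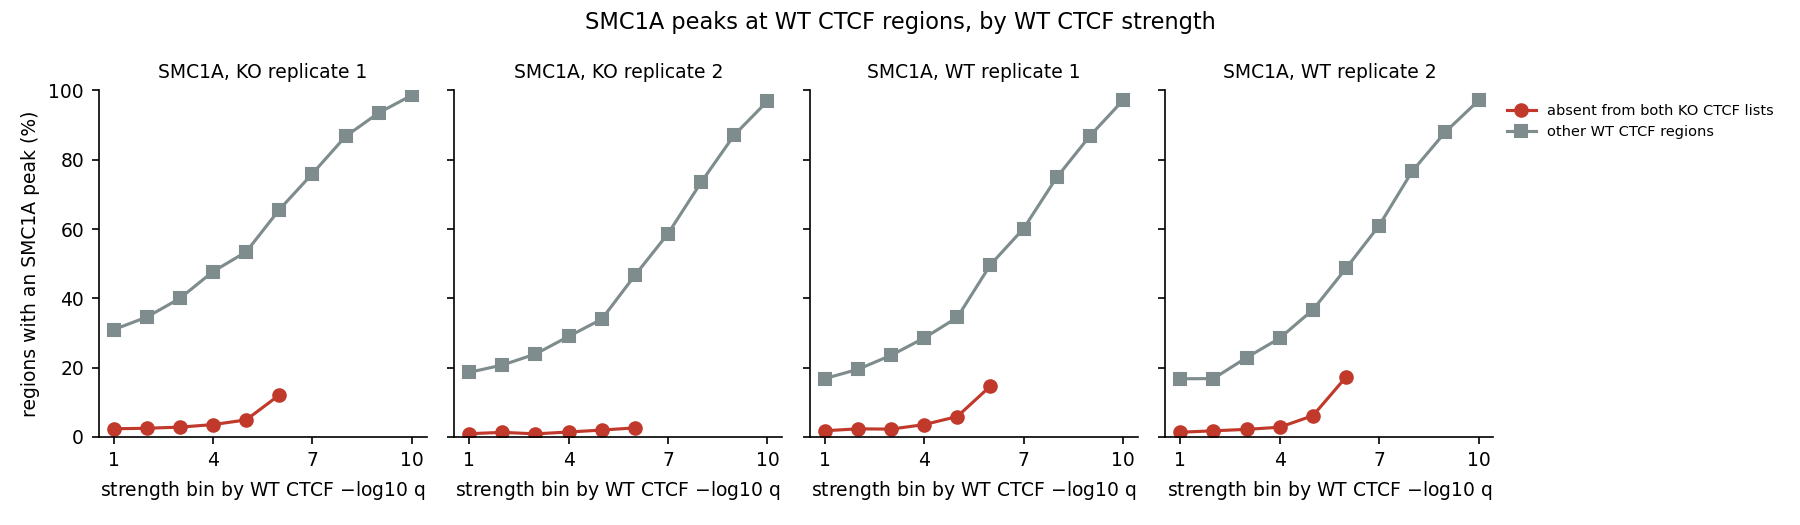
Percent of WT CTCF regions with an SMC1A peak, by strength bin of WT CTCF −log10 q (1 is weakest), in each of the 4 SMC1A lists, for regions absent from both KO CTCF lists (bins with at least 100 such regions) and for the other WT regions. The absent regions stay under 20% in every bin drawn, below the others of the same bin.

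Between genotypes the SMC1A share at the absent regions averaged 2.06% ± 1.28 in KO and 2.71% ± 0.209 in WT (SD, n = 2 lists each). The difference of −0.66 percentage points was within the spread of the KO lists (exact two-sided permutation test, p = 1). It was 0.10 points between the replicate 1 lists and −1.42 points between the replicate 2 lists. At the other WT regions the means were 61.7% ± 9.58 in KO and 55.6% ± 0.261 in WT (p = 1 by the same exact test). The gap between absent and other regions was −59.6 ± 8.29 points in KO and −52.9 ± 0.470 points in WT (exact p = 0.333). With 2 lists against 2 the test cannot go below 0.333, and over the 4 results so tested the adjusted p was 0.667 or above.

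The few SMC1A peaks at the absent regions were weak ones in their own lists. Their median −log10 q stood at the 16.8th and 17.7th percentile of all SMC1A peaks in KO replicates 1 and 2, and at the 27.0th and 28.6th in WT replicates 1 and 2. The KO and WT values did not overlap, and the difference of −10.5 percentiles had an exact permutation p of 0.333. It was 0.94 without KO CTCF replicate 1, 3.77 with SMC1A peaks within 1 kb counted, and −0.14 where only a KO summit within 200 bp of a WT summit counted as held. SMC1A peaks at the other WT regions stood at the 61.5th and 58.1st percentile in KO and the 57.3rd and 57.9th in WT.

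SMC1A was in none of the 4 lists at 6315 absent regions (93.1%), against 6621 of the other WT regions (23.1%). Of the 465 absent regions with any SMC1A peak, 338 had it in 1 list only. An SMC1A peak in both WT lists and neither KO list was found at 35 absent regions (0.516%), where the background over all WT CTCF regions was 0.989%. The reverse, both KO lists and neither WT list, was found at 9 (0.133%), where the background was 3.14%. Both shares stood below the background.

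How often SMC1A present in both WT lists was missing from the KO lists depended on how regions were matched. Of the 72 absent regions with SMC1A in both WT lists, 35 had it in neither KO list, which is 48.6% (37.4 to 59.9). In both KO lists it was found at 17 of the 72 (23.6%), against 86.2% of such other WT regions and 85.8% of all such WT regions. Among the other WT regions with SMC1A in both WT lists, 316 of 13417 had it in neither KO list, or 2.36% (2.11 to 2.63), and the background over all such regions was 2.6%. The mirror count went the same way: of 27 absent regions with SMC1A in both KO lists, 9 (33.3%; 18.6 to 52.2) had it in neither WT list, against 7.48% of the others and a background of 7.53%. Each share is 1 value over the 4 lists together, so none of them was tested.

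SMC1A peaks were weaker at the absent regions, and the comparison was repeated by strength. The lower of the WT SMC1A −log10 q values had a median of 4.66 at the 72 regions and 8.39 at the others. Where that value was from 3 to 5, SMC1A was in neither KO list at 18 of 30 absent regions and 161 of 2528 others, or 60.0% and 6.37%. From 5 to 10 it was 9 of 19 and 60 of 4310, or 47.4% and 1.39%. At 10 or more it was 1 of 10 and 9 of 5674. The 48.6% rested on the CTCF lists and on the matching: without KO CTCF replicate 1 the share was 9.41%, against 1.11% of the others, and without KO CTCF replicate 2 it was 32.1%, against 2.36%. With CTCF lists of equal length it was 23.4%, against 1.14%. It was 10.4%, against 2.23%, where only a KO summit within 200 bp counted as held, and 5.87%, against 1.97%, with SMC1A peaks within 1 kb counted.

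**Figure D5:**
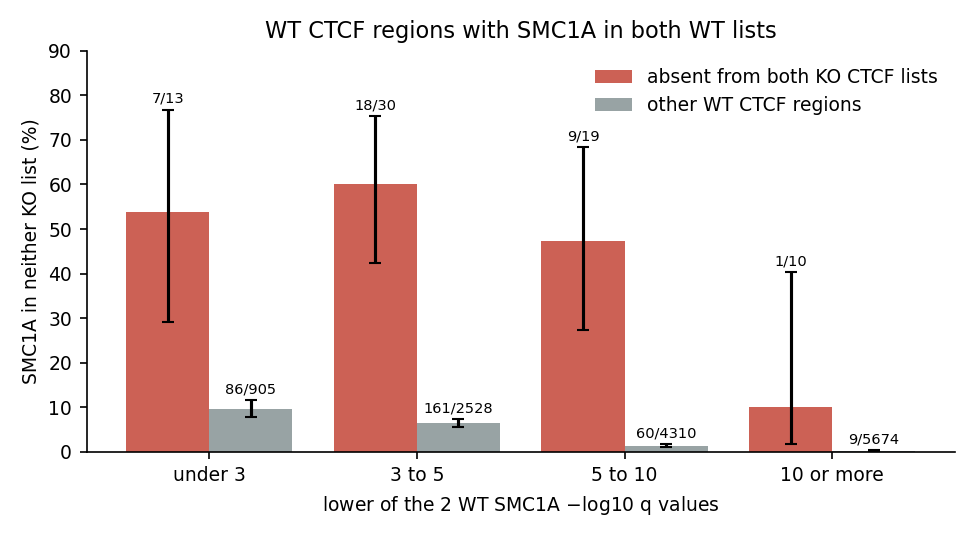
Percent of WT CTCF regions with SMC1A in both WT lists that had it in neither KO list, by the lower WT SMC1A −log10 q, for regions absent from both KO CTCF lists and for the other WT regions, with 95% Wilson intervals and the counts above. In the bin from 3 to 5 it is 60.0% of absent regions and 6.37% of the others.

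The 8 strongest of the 35 regions that lacked both CTCF and SMC1A in the KO lists were led by an intergenic site at chr18:85697846-85698291. Its WT CTCF −log10 q was 33.3, and its WT SMC1A −log10 q was 5.65 and 18.2 in replicates 1 and 2. It lay on a local CTCF background of 17.1 reads, and it, Dusp16 and a site on chromosome 15 (10.3 reads each for these) were the 3 of the 35 with a background over 5 reads. A region of 909 bp 2.97 kb from Ptprs, a receptor protein tyrosine phosphatase, had 27.5 for CTCF and 8.91 and 17.6 for SMC1A. The Jup promoter, printed above, had 17.8 for CTCF and 17.7 and 23.1 for SMC1A. In Dusp16, a phosphatase of MAP kinases, the values were 24.7 for CTCF and 3.86 and 4.04 for SMC1A. The others were near Ift81, an intraflagellar transport protein, in Smoc1 and Gse1, and at an intergenic site on chromosome 15. Their WT CTCF −log10 q ran from 10.4 to 18.8. The 35 had a median WT peak of 429 bp, against 234 bp over all absent regions and 501 bp at the other WT regions. In a gene body lay 20 of the 35, beside 61.3% of all absent regions and 53.5% of the other WT regions.

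SMC1A was in all 4 lists at 17 absent regions (0.251%), against 40.3% of the other WT regions and 32.6% of all WT regions. The 17 had a median width of 200 bp. The strongest by WT CTCF lay in Slc18b1, a polyamine transporter, with SMC1A −log10 q of 4.73 and 8.90 in KO and 8.74 and 15.8 in WT. A region in Hspa1b, an inducible HSP70 chaperone, had 9.63 and 4.68 in KO and 21.5 and 18.9 in WT. The others named by the rule were near Fbxo34 and Larp1 and at intergenic sites on chromosomes 2 and 10. SMC1A in both KO lists and neither WT list was found at Abl2, a tyrosine kinase, with 2.56 and 3.69 in KO. At Lsm14a, a P-body protein, the KO values were 17.0 and 7.31, and the remaining regions named were near Traf3 and in Fbxl12.

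A local background over 5 reads was found at 46 of the 6780 absent regions (0.678%) and at 1.40% of the other WT regions. Among the 12 strongest absent regions, 8 lay on such a background. The strongest of all did not: at chr3:45679637-45679997, 245 kb from the nearest protein-coding gene, 66 reads stood over a background of 1.14, with a fold of 31.3 and a −log10 q of 86.9. It held no SMC1A peak in any list. Regions near Gm40035 on chromosome 2 took 3 of the 12 places, with backgrounds of 39.9, 49.0 and 185 reads. A region 21.3 kb from Ly6c2 had 704 reads over 456, a fold of 1.54. The part of such backgrounds in these calls was not tested, and without regions of background over 5 reads 6734 absent regions remained.

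At T lineage genes the absent share was near the background. Of 201 WT regions within 20 kb of 29 T lineage transcription factor genes, 44 (21.9%; 16.7 to 28.1) were absent from both KO lists, beside 19.1% over all WT regions. At 23 T cell receptor, coreceptor and signalling genes it was 28 of 154 (18.2%). At 19 cytokine, cytotoxic and egress genes it was 3 of 28, at 11 regulatory T cell genes 3 of 23 and at 15 survival and death genes 9 of 69. Over all 12 lists it was 173 of 816 (21.2%; 18.5 to 24.1).

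Cd8a, which encodes a CD8 coreceptor chain, had the most among the listed genes, with 7 of 15 WT regions within 20 kb absent from both KO lists and 1 region in all 3 lists. The strongest, in the Cd8a body at chr6:71375085-71375434, had a −log10 q of 5.15 and an SMC1A peak in WT replicate 1 alone. The others of the 7 lay in its neighbour Rmnd5a or nearest to Cd8a outside its body, with −log10 q down to 1.47. Satb1, the targeted gene, had 6 of 12, all in its body, and 3 of them held an SMC1A peak in at least 1 list. The strongest of these, at chr17:51803357-51803556, had a −log10 q of 4.36. Cd4 had 2 of 7, Rag1, a recombinase of antigen receptor genes, 1 of 5, Runx3 1 of 7, and Bcl6 0 of 5. Ikzf1, which encodes the factor Ikaros, had 4 of 12.

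Genes of cohesin, CTCF and nuclear architecture had 38 of 127 WT regions absent from both KO lists (29.9%; 22.6 to 38.4), over 21 autosomal genes. Within 20 kb of Ctcf 5 of 12 were absent, some of them in or nearest to its neighbour Carmil2. Nipbl, the cohesin loader, had 4 of 9, Pds5a, a cohesin regulator, 4 of 6, and Top2b, a topoisomerase, 4 of 8. Other genes of the same list had few or none, with Mau2 and Top2a at 0 of 4, Stag1 at 0 of 3 and Lmna at 1 of 9. With 100 kb around the gene bodies the share of that list was 22.1%. CTCF-dense clusters, such as Hox and protocadherin genes, had 14 of 45 (31.1%; 19.5 to 45.7), with the strongest region in Hoxa13 at a −log10 q of 6.00. Housekeeping genes had 11 of 66 (16.7%). Among genes that mark other lineages, the B cell list had 3 of 26, the myeloid list 5 of 20, the erythroid list 8 of 26 and the thymic epithelial list 7 of 32. No test was made of any list.

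Gene bodies of 3255 protein-coding genes held at least 1 absent region, and 21 held 5 or more. These counts have no figure for all WT regions beside them. The genes that follow were named for holding the most, so their shares are high by choice beside the 19.1% over all WT regions. Gse1 had 7 of its 29 WT regions absent from both KO lists. Zfp280d, a zinc finger gene, had 6 of 7, and none of the 6 held SMC1A. Pakap and Satb1 each had 6 of 11. Tnk2, a non-receptor tyrosine kinase, had 5 of 8, and Gm572, Osbpl5 and Xrra1 each had 5 of 9. Their lengths differ, with 463 kb for Pakap and 39.4 kb for Tnk2.

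Some absent regions followed each other with no other WT region between them. The longest run was 7 regions between chr1:137906951 and 138040764, ending 22.2 kb from Ptprc, which encodes CD45, and none of the 7 held SMC1A. Runs of 6 lay in Zfp280d and in a stretch of chromosome 19 134 kb from the nearest protein-coding gene, again with no SMC1A. A run of 5 lay in Satb1, and 2 of the 5 held SMC1A. Their WT −log10 q values ran from 2.33 to 5.37, so each run was made of weak peaks. In windows of 1 Mb with at least 10 WT regions, 1140 in number, the median share absent was 18.5% (5th to 95th percentile 5.88 to 34.0). It passed 40% in 16 windows, among them one at 51 to 52 Mb of chromosome 17 with Satb1, at 7 of 15.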

How the data were processed

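CUT&RUN was run on sorted cells, per the labels' protocols. Per the submitters' processing notes, Trimmomatic 1.24, Bowtie2, SAMtools, deepTools, MACS2 and R 4.12 were used with mm10; their settings and the peak calling control are not stated in those sources. The authors deposited a separate narrowPeak list for each library, with no pooling, and each gives a fold enrichment ratio, −log10 p and −log10 q per peak, and the summit's offset in bp. Of 18 samples, 7 had a list analysed here.

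Regions were merged by 1 bp overlap and take the values of their strongest WT peak. The pile-up was solved from fold and −log10 p under a Poisson model, and gave a whole number of reads, with −log10 p matched to within 0.001, at 100% of the regions absent from both KO lists and 99.8% of the others. Starts and sequences came from RefSeq tables of GRCm38.p6, and genes from its 21896 protein-coding entries; Trac, Trbc1, Trbc2, Trgc1 and H19 are not among these. Tests were exact permutations over SMC1A lists, with Benjamini-Hochberg adjustment. Wilson intervals cover counting error only. Region merging, overlaps and solving were tested on simulated data. Software was scipy 1.17.1, pandas 2.3.3, numpy 2.4.6 and matplotlib 3.10.9 under Python 3.11.15.

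Members and gene lists were chosen with earlier results of these data known. Named regions are the 12 strongest, the strongest of each SMC1A pattern, the genes with most regions, and a set of genes always described. Replicate numbers match the batch in the labels, so they pair samples; deviations of same-numbered SMC1A lists correlated at 0.0074 over 35499 regions. Alternatives were stricter or equal-length lists, other overlap rules, other distances, each list left out and the replicate block. The test of absent against other regions over the 4 SMC1A lists, the removal of high backgrounds and the count at 200 bp of the summit were added after seeing the data.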

Additional observations from a re-analysis of the deposited data

How the results depend on the processing

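The count of 6780 absent regions became 1910 with −log10 q of 5 or more in every CTCF list, 3018 with lists of equal length and 3584 where a KO peak within 1 kb counts as held. It ran from 7043 to 20461 with either KO list left out. The KO minus WT difference in SMC1A share at absent regions, −0.66 points, turned to 0.98 with KO summits within 200 bp counted as held and to 1.45 with SMC1A within 1 kb, and ran from −1.56 to 3.31 with 1 list left out. At the other WT regions, 6.05 points turned to −0.27 with equal-length SMC1A lists and ran from −0.72 to 12.8. The gap between the sets, −6.71 points, kept its sign in all 18 alternatives (−12.6 to −0.84 with 1 list left out). The difference in SMC1A percentile, −10.5, turned to 3.77 with SMC1A within 1 kb and ran from −11.3 to 0.94. None of these differences had a p under the 0.333 that the design allows. With the replicate block, which keeps each mean, the 4 values were −0.66, 6.05, −6.71 and −10.5 (paired exact permutation p of 1, 1, 0.5 and 0.5).

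The 48.6% of absent regions that lacked SMC1A in both KO lists, of those with it in both WT lists, became 23.4% with equal-length CTCF lists, 10.4% with the 200 bp summit rule and 5.87% with SMC1A within 1 kb, and ran from 9.41% to 70.8% with 1 list left out. The share over all gene lists, 21.2%, was 25.7% in gene bodies alone. In the weakest bin by fold in place of −log10 q, 48.0% were absent and in the second 51.5%, so the weakest bin was not the highest by fold. The cause of each change was not tested. Depth is known only by proxy, and the WT CTCF list has no replicate.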

Other observations

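On chromosomes X and Y, which the rule leaves out, 54 of 701 WT CTCF regions were absent from both KO lists, or 7.70% (95% Wilson interval 5.95 to 9.92), against 19.1% on the autosomes. Of the 701, 40 lay on chromosome Y. The median WT −log10 q was 7.94 on X and Y and 7.94 on the autosomes. Smc1a, the X-linked gene of the cohesin subunit measured here, had 1 of 3 WT regions within 20 kb absent from both KO lists. The sources used here do not give the sex of the mice, and the difference was not tested.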
